A study of Mus musculus with 13 samples.

Results

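The data described here are UMI counts from 8 thymic lobe samples that were barcoded with 2 kits of the same split-pool chemistry, the Parse whole transcriptome kit (WT) and its smaller version (Mini). The rule took the 4 thymic samples of the WT table and the 4 samples of the Mini table, summed the UMIs of all cells with 500 to 25000 UMIs in each sample, and left 3 ribosomal RNA genes (Rn18s-rs5, mt-Rnr1 and mt-Rnr2) out of the totals. These 8 samples held 58756 cells within the limits out of 61923, among the 148709 cells and 24 samples of both tables. The WT samples are called WT 1 to WT 4 and the Mini samples Mini 1-A, 1-B, 2-A and 2-B.

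In the thymus, progenitors without CD4 and CD8 (double negative, DN) become double positive (DP) cells that carry both coreceptors and rearrange the T cell receptor (TCR) alpha chain with the Rag recombinase. The few DP cells that are selected mature into CD4 or CD8 single positive cells and leave, so DP cells dominate a young thymus, while B cells, dendritic cells and other cells are rare. In split-pool barcoding, fixed and permeabilised cells are distributed over wells, labelled, pooled and distributed again. Every cell of a pool therefore shares solution with all others. Reverse transcription uses oligo-dT together with random hexamer primers, so that RNA without a poly(A) tail and unspliced RNA are also read.

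Each kit received 4 samples from control female C57BL/6N mice of 2 months, each sample being 1 lobe of a thymus that was mashed, digested with collagenase/dispase and DNase I, and fixed. The mice of the Mini experiment were separate animals under the same set-up. No sample label ties a lobe to its mouse, and neither the number nor the letter in the names of the Mini lobes is explained there. Lobes of 1 mouse are technical replicates, and the p-values below, which take the 8 lobes as independent, are therefore too small. The 4 WT lobes were pooled with 16 non-thymic samples, and the labels of the whole pool name thymus and spleen, control and chronic stress, whereas the Mini pool held only the 4 lobes. Kit, run, animals and the company in the pool changed together and cannot be told apart.

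Depth differed between the samples. The WT lobes had 3974 to 14200 cells and 21043928 to 84315890 UMIs within the limits, at 3.53 to 3.61 mapped reads per UMI, and the Mini lobes 4301 to 5254 cells and 20145368 to 22508750 UMIs at 2.11 to 2.14 reads per UMI. The median UMIs per cell outside ribosomal RNA overlapped, with 2138 to 3088 in WT and 2008 to 2657 in Mini (exact permutation test, two-sided, p = 0.514). Among cells with at least 1000 UMIs outside ribosomal RNA, thinned to 1000, the median number of genes was 654 to 721 in WT and 718 to 754 in Mini. Each WT lobe filled 2 wells of the first barcoding round and each Mini lobe 3, no cell barcode was shared between the kits, and doublets were not removed.

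Of 15158 genes tested with edgeR's quasi-likelihood test, 1338 (8.83%) were called at an adjusted p below 0.05. In the Mini lobes 430 (2.84%) were higher and 908 (5.99%) were lower, and an unadjusted p below 0.05 was reached by 3993. The 2 directions differed in size. Only 5 of the genes called higher reached a 2-fold difference (0.033% of genes tested), against 391 of those called lower (2.58%), together 2.61%. Of the genes tested, 710 passed the filter on low counts only through the WT lobes, and 208 of the 908 called lower were among these. In what follows, rose and fell refer to calls by edgeR. The groups did not overlap, with all 4 Mini lobes above all 4 WT lobes for 7.69% of genes and below them for 8.39%. The median log2 fold change of Mini over WT across all genes was -0.01. With library totals in place of TMM factors (a scaling that is robust to a few abundant genes) this median was 0.08, and the calls were 676 higher and 651 lower. The number of calls rested on single lobes: it was 2847 without WT 1, between 323 and 820 without WT 3, WT 4 or any 1 Mini lobe, and 1351 without WT 2. In the plot of all genes the calls in the lower direction are numerous among genes under 10 CPM (UMIs of a gene scaled to the library total, which is adjusted by the TMM factor for single genes but not for sums over a list), where hardly any gene was called higher.

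**Figure D1:**
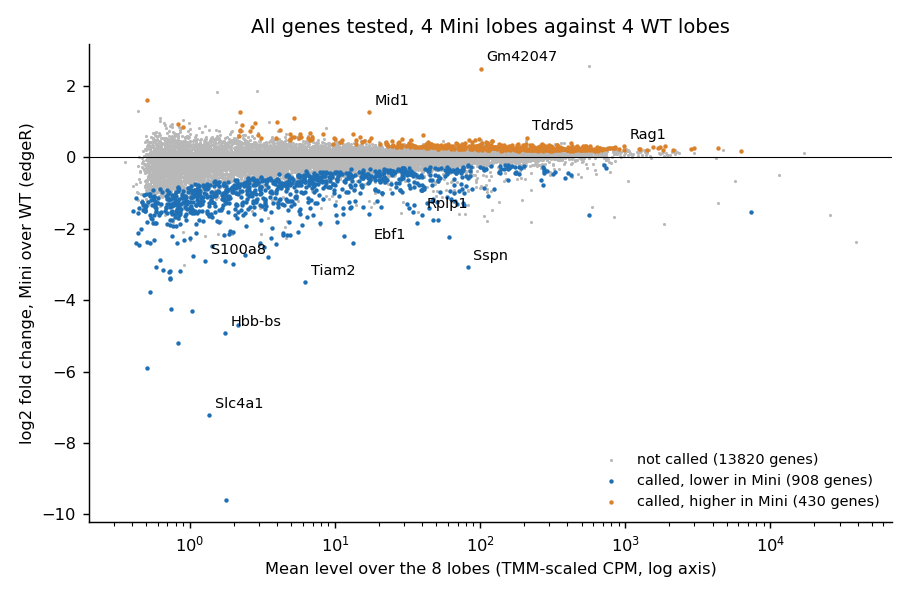
The log2 fold change of Mini over WT (y axis, edgeR) is plotted against the mean level of each of the 15158 genes over the 8 lobes (x axis, TMM-scaled CPM, log scale), with 430 genes called higher in Mini in orange, 908 called lower in blue and the others in grey. The points called lower reach far greater distances from 0 than those called higher, and the fitted values of genes with few or no UMIs in Mini, such as Slc4a1 and the lowest point (H2-Ea), depend on the prior count of the fit.

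The CD3 and Cd8a genes, which mark thymocytes, were read in every lobe. The CD3 chains, which transmit the TCR signal, lay at 77 to 115 CPM in WT and 80.7 to 89.8 in Mini for Cd3d, at 238 to 307 and 284 to 334 for Cd3e, and at 177 to 237 and 177 to 206 for Cd3g. None of these, nor the TCR zeta chain gene Cd247 (log2 fold change 0.13 ± 0.06, adjusted p = 0.201), was called. The coreceptor gene Cd8a had 548, 466, 495 and 535 CPM in the 4 WT lobes and 506, 516, 569.7 and 616 in the 4 Mini lobes, which overlap (log2 fold change 0.11 ± 0.07, adjusted p = 0.357). Xist, the RNA that silences 1 X chromosome in females, was read at 1127 to 1282 CPM in WT and 1169 to 1489.7 in Mini. Ddx3y, a Y-linked helicase gene with a close X-linked copy whose reads it may share, had 7.62, 19.9, 14 and 16.8 CPM in WT and 6.83, 8.45, 4.73 and 7.61 in Mini (-1.10 ± 0.28, adjusted p = 0.0459). The Ddx3y call was lost without WT 2, WT 3, WT 4 or any 1 Mini lobe. Nnt, a mitochondrial transhydrogenase gene that is partly deleted in the related substrain C57BL/6J, was at 113 to 121 and 119 to 136 CPM.

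DP stage genes were higher in the Mini lobes by small folds. Of 19 recombinase and DP stage genes tested, 7 rose (36.8%, against 2.84% of all genes) and none fell, and their median log2 fold change was 0.19 against -0.01 over all genes. The count was 6 to 11 without any 1 lobe, the highest without WT 2. Since these are sums over all cells of a lobe, whether more cells of the stage or more of these RNAs per cell were read was not tested.

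Rag1, the catalytic recombinase subunit (chromosome 2, 101638282 to 101649501, GRCm38), had 965, 798, 901 and 818 CPM in WT 1 to 4 and 1103, 1076, 1081 and 1079 in Mini 1-A, 1-B, 2-A and 2-B. Every Mini lobe lay above every WT lobe, and the Mini lobes were nearly level with each other (log2 fold change 0.32 ± 0.06, adjusted p = 0.0112). Leaving out any 1 lobe kept the call, with adjusted p up to 0.0413. When lobes were summed in pairs, in each of the 9 ways in which 2 mice per kit could have given them, the call was lost in 1 (adjusted p = 0.052). Its partner Rag2, the neighbouring gene, had 63.5, 65, 52.9 and 50.5 CPM in WT and 66.3, 69.1, 70.4 and 75.7 in Mini, also without overlap, and was not called (log2 fold change 0.28 ± 0.09, adjusted p = 0.0639).

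The largest change of the list was in Tdrd5, a tudor domain gene best known from germ cells (chromosome 1, 156255296 to 156303664), with 175, 182, 174 and 153 CPM in WT and 235, 262, 246 and 258 in Mini (log2 fold change 0.55 ± 0.06, adjusted p = 0.00111). Every Mini lobe lay above every WT lobe, and the call held without any 1 lobe. Spo11, whose product cuts DNA in meiosis, rose by 0.45 ± 0.09 on the log2 scale, Rmnd5a, a subunit of a ubiquitin ligase, by 0.31 ± 0.06, and Arpp21, an abundant RNA-binding protein gene of the lobes, by 0.25 ± 0.05 (adjusted p 0.0132, 0.00815 and 0.0108). These 3 were also called without any 1 lobe. Aqp11 and the survival gene Bcl2l1 were the other called members.

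**Figure D2:**
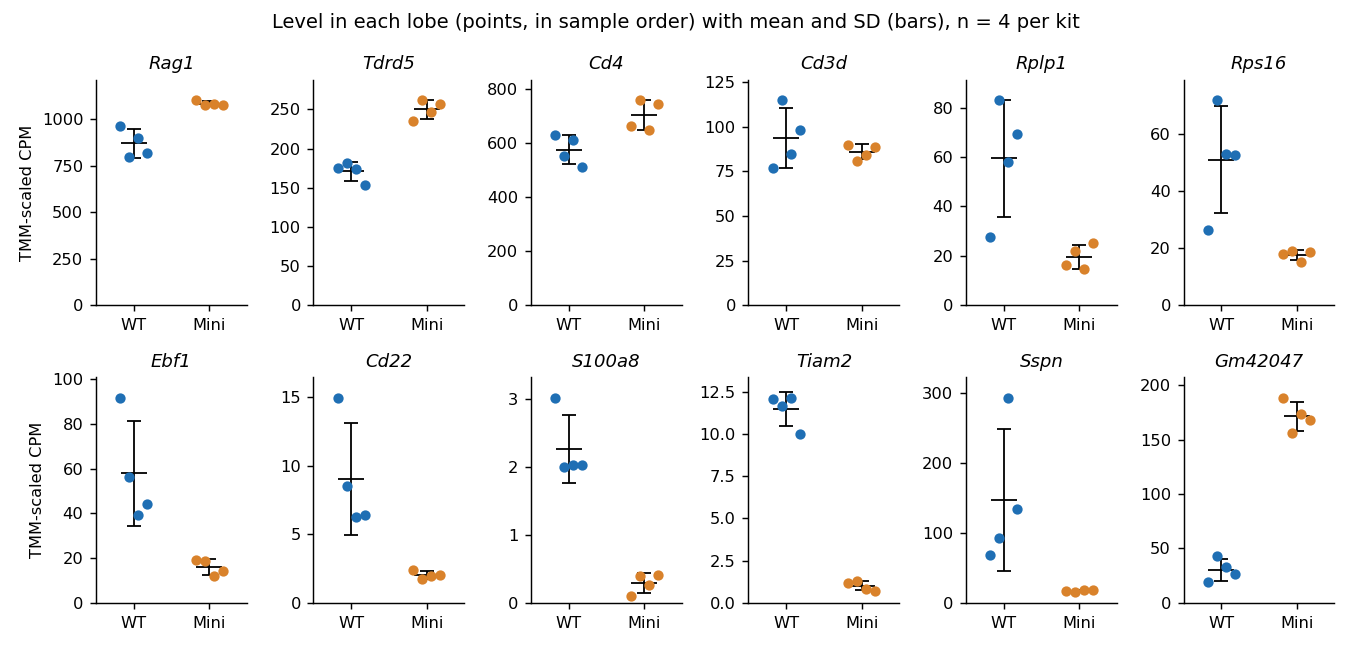
Each panel shows 1 gene with its level in TMM-scaled CPM (y axis, from 0) in the 4 WT lobes (blue) and the 4 Mini lobes (orange), in sample order, with the mean and SD as bars. Rag1, Tdrd5 and Cd4 lie higher in Mini without overlap, Cd3d overlaps, Gm42047 lies far higher in Mini, and the ribosomal protein genes Rplp1 and Rps16, the B cell genes Ebf1 and Cd22, S100a8, Tiam2 and Sspn lie lower in every Mini lobe, with WT 1 nearest to the Mini lobes for both ribosomal protein genes and highest for Ebf1, Cd22 and S100a8.

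Among 22 coreceptor and TCR genes 2 rose (9.09%, against 2.84% of all genes) and none fell: Cd4 had 628, 552, 611 and 509.7 CPM in WT and 664, 757, 646 and 745 in Mini (log2 fold change 0.29 ± 0.08, adjusted p = 0.0339), and Ptprc, the leukocyte phosphatase CD45, rose by 0.26 ± 0.06. Both calls were lost without some lobes, with adjusted p up to 0.0998 for Cd4 (without WT 2, WT 3, WT 4, Mini 1-B, 2-A or 2-B) and 0.0883 for Ptprc (without WT 3, WT 4, Mini 1-B, 2-A or 2-B). Of 12 CD4 lineage genes 2 rose (16.7%; Cd4 and the chromatin organiser Satb1), and neither was called without WT 3, WT 4, Mini 1-B, 2-A or 2-B. The median of the CD4 list was -0.07, whereas its summed level, carried by its abundant members, was higher in Mini (8416 ± 922 and 9979 ± 333 CPM, SD, n = 4; exact p = 0.0286, adjusted 0.0825). Of 10 CD8 lineage genes none was called by edgeR, 4 had an unadjusted p below 0.05, and DESeq2 called 1 as higher.

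Of 20 DN stage genes 5 fell (25%, against 5.99% of all genes) and none rose, with a median of -0.16. Lmo2, a bridging factor of haematopoietic progenitors, had 4.33, 3.14, 2.23 and 2.58 CPM in WT and 0.569, 0.394, 0.478 and 1.23 in Mini (-2.15 ± 0.32, adjusted p = 0.0041), Lyl1, a progenitor transcription factor, fell by 1.55 and Hhex, a homeobox gene also used in B cells, by 1.44 on the log2 scale. The others were Ly6d and the myeloid and B cell factor gene Spi1. In the other 16 samples of the WT pool the median levels were 112.9 CPM for Lmo2, 37.1 for Lyl1, 24.96 for Hhex and 66.1 for Spi1. Their means over the WT lobes were 3.07, 1.68, 1.196 and 3.37 CPM. Whether these calls reflect the DN stage was not tested. Lmo2, Lyl1 and Hhex were called without any 1 lobe, while the count for the list was 3 without WT 4, Mini 1-A, Mini 1-B or Mini 2-A. The summed level of the list went the other way, with 4366 ± 354 CPM in WT and 4957 ± 148 in Mini (SD, n = 4; exact p = 0.0286, adjusted 0.0825). Lmo2, Lyl1 and Hhex passed the filter on low counts only through the WT lobes, so that a difference was a condition of their being tested.

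Of 22 selection and TCR-signal genes 1 rose (4.55%, against 2.84% of all genes) and 2 fell (9.09%, against 5.99%). Bcl2l11 encodes Bim, which kills thymocytes that fail or over-react in selection. It had 548, 461, 464 and 520.2 CPM in WT and 362, 357, 339.6 and 347 in Mini, lower in each Mini lobe than in each WT lobe (log2 fold change -0.50 ± 0.06, adjusted p = 0.00118; adjusted p up to 0.00976 without any 1 lobe). Ccr7, a receptor that guides cells to the medulla, had 98.5, 73.9, 84.3 and 84.3 CPM in WT and 58.5, 68.2, 63.5 and 62.1 in Mini (-0.43 ± 0.09, adjusted p = 0.0124), and was not called in 1 of the 9 pairings of lobes (adjusted p = 0.052). Slamf6, a signalling receptor of DP cells, rose by 0.28 ± 0.07 and was not called without WT 3, WT 4, Mini 1-B, 2-A or 2-B (adjusted p up to 0.0926).

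Of 21 mature and egress genes 9 fell (42.9%, against 5.99% of all genes) and none rose, with a median of -0.35. S100a6, a calcium-binding protein gene, had 0.822, 1.4, 1.53 and 1.69 CPM in WT and 0.414, 0.113, 0.266 and 0.257 in Mini (-2.39 ± 0.34, adjusted p = 0.00266). It was 1 of 3 members that passed the filter only through WT, of which 2 were called. Cd52, a lymphocyte surface glycoprotein, had 18.7, 21.6, 19.4 and 20.3 CPM in WT and 6.57, 11.3, 8.87 and 13.2 in Mini (-1.0 ± 0.17, adjusted p = 0.00708). Klf2, the factor that switches on egress receptors, had 15.6, 12.9, 16.4 and 12.9 CPM in WT and 8.9, 7.15, 8.6 and 10.8 in Mini (-0.70 ± 0.13, adjusted p = 0.0114). The 3 were lower in every Mini lobe and called without any 1 lobe, although with lobes summed in pairs Cd52 was not called in 1 of the 9 pairings and Klf2 in 2 (adjusted p up to 0.0548 and 0.0515), and the count for the list was 4 without Mini 1-B or 2-A, 5 without WT 3 or WT 4 and 6 without Mini 1-A. Over the 9 pairings the count for the list was 2 to 14. S1pr1, the receptor that defines egress and a member of the list, was not called (-0.27 ± 0.10, adjusted p = 0.107). The summed level of the list overlapped without TMM factors (1270.2 ± 107 and 1181 ± 34 CPM; exact p = 0.171), and with them it was 1270.3 to 1338 CPM in WT and 1076 to 1192 in Mini, without overlap. The median levels in the other 16 samples of the WT pool were 12.8 CPM for S100a6, 112 for Cd52 and 57.4 for Klf2, above their WT lobe means. For Lgals1 and Ccr7, which also fell, they were 6.71 and 51.1 CPM, below their WT lobe means of 12.6 and 85.3.

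Ribosomal RNA took a smaller share of the Mini libraries. The 3 ribosomal RNA genes together held 17.2%, 27.4%, 25.8% and 21.5% of UMIs in WT 1 to 4 and 14.5%, 13.0%, 13.6% and 15.5% in the Mini lobes, without overlap. The exact permutation test gave p = 0.0286, the smallest that 4 against 4 samples allow (2 of 70 groupings), and 0.0825 after adjustment over 26 measures. The difference lay in the cytosolic Rn18s-rs5 (18S) at 11.7% to 21.4% in WT and 8.07% to 11.4% in Mini. The mitochondrial mt-Rnr1 overlapped, with 2.07% to 2.68% in WT and 1.77% to 3.07% in Mini, as did mt-Rnr2.

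A list of 13 abundant genes that track ribosomal RNA between cells of these data had 11 members tested, of which 4 fell (36.4%, against 5.99% of all genes) and none rose, with a median of -1.60. The list was drawn up from the same cells, so its direction is not independent of the ribosomal RNA. The gene Filip1l lies inside the gene Cmss1 on the opposite strand, and reads of overlapping genes could be split between them. It had 531, 759.7, 1374 and 734 CPM in WT and 225, 268, 349 and 276 in Mini (-1.60 ± 0.32, adjusted p = 0.0324). Gm19951, an unnamed gene on chromosome 12, had 7403, 15768, 9489.6 and 11402 CPM in WT and 2458, 2905, 4750.1 and 5001 in Mini (-1.54 ± 0.34, adjusted p = 0.0442), and AY036118 also fell. AY036118 and Rn18s-rs5 are annotated at the same ribosomal RNA locus of chromosome 17. The calls were unstable: none was made without WT 2, WT 4, Mini 1-B, 2-A or 2-B, 1 was made without WT 3 or Mini 1-A, and 7 without WT 1.

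Cdk8, another abundant gene, was in this list and was not called. It spread over 10456, 55791, 48145 and 146101 CPM in WT 1 to 4 and 4781, 19080.2, 14226 and 12295 in the Mini lobes, so that WT 4 was more than 10 times as high as WT 1 (log2 fold change -2.37 ± 0.85, adjusted p = 0.144). Cmss1, which lay lower in every Mini lobe, missed the threshold (-1.62 ± 0.38, adjusted p = 0.0517), and Camk1d and Lars2 overlapped between the kits. Malat1, a nuclear lncRNA, was at 14354 to 19107 CPM in WT and 16809 to 19508 in Mini.

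Genes of the cytosolic ribosome were lower in the Mini lobes. Of 81 ribosomal protein genes tested 39 fell (48.1%, against 5.99% of all genes) and none rose, with a median log2 fold change of -0.92. Together they held 0.399%, 0.835%, 0.590% and 0.658% of UMIs outside ribosomal RNA in WT 1 to 4 and 0.313%, 0.347%, 0.298% and 0.391% in Mini (exact p = 0.0286, adjusted 0.0825). With TMM factors the summed level was 3808.7 to 8810.6 CPM in WT and 2905.5 to 3822.2 in Mini, which overlap. WT 1 lay close to the Mini lobes and the other WT lobes stood well above. The number of calls depended on this: it was 78 without WT 1, 22 without WT 2, 19 without Mini 2-B, 9 to 11 without WT 3, WT 4, Mini 1-A or Mini 1-B, and 4 without Mini 2-A. Without the upper limit of UMIs per cell it was 11.

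Rps16, of the small subunit, had 26.6, 72, 53.2 and 52.9 CPM in WT and 18.2, 19.2, 15.2 and 18.7 in Mini (-1.53 ± 0.28, adjusted p = 0.0193). Rplp1, of the stalk of the large subunit, had 27.5, 83, 58 and 69.3 CPM in WT and 16.2, 22, 14.8 and 25 in Mini (-1.62 ± 0.35, adjusted p = 0.0391). In both, WT 1 lay just above the highest Mini lobe, and the calls were lost without some lobes (adjusted p up to 0.0668 for Rps16 and 0.112 for Rplp1). Ribosomal protein genes have many processed pseudogenes, and the sources used here do not say how reads that match several copies were assigned.

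Nuclear genes of oxidative phosphorylation followed in the same direction by smaller folds: 19 of 88 fell (21.6%, against 5.99% of all genes), none rose, and the median was -0.30. The count was 45 without WT 1, 2 to 6 without WT 3, WT 4 or any Mini lobe but 2-B, and 12 without Mini 2-B. Uqcr11, a small subunit of complex III, had 5.59, 13.9, 9.0 and 9.38 CPM in WT and 4.03, 3.94, 3.82 and 4.93 in Mini (-1.20 ± 0.23, adjusted p = 0.0144), and Ndufaf8, an assembly factor of complex I, had 3.73, 5.83, 5.67 and 4.2 CPM in WT and 2.02, 3.04, 2.18 and 2.57 in Mini (-1.0 ± 0.19, adjusted p = 0.0109). The first was not called without Mini 2-A (adjusted p = 0.0572) and the second was called without any 1 lobe. Of 7 mitochondrially encoded mRNAs that could be tested edgeR called 1 as lower (14.3%, against 5.99% of all genes), while 3 were called by DESeq2 and 3 without WT 1. This was mt-Nd2, with 251, 362, 366 and 296 CPM in WT and 228, 197, 204 and 193 in Mini (-0.64 ± 0.11, adjusted p = 0.0119). mt-Co1 at 687 to 1101 CPM in WT and 546 to 837 in Mini was not called.

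B cell genes were lower in the Mini lobes. Of 18 B cell genes 13 fell (72.2%, against 5.99% of all genes) and none rose, with a median of -1.43. Of these 18, 4 passed the filter only through WT, and 2 of them were among the 13. Summed over the list, WT 1 to 4 had 478, 290, 250 and 244 CPM of the list and the Mini lobes 164, 163, 125 and 179, without overlap (exact p = 0.0286, adjusted 0.0825). The count was 7 without Mini 2-A, 8 without WT 4 or Mini 1-A, 9 to 14 without any 1 of the others, and 8 with library totals in place of TMM factors.

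Ebf1, a transcription factor that sets B cell identity (chromosome 11, 44617317 to 45008091), had 91.7, 56.1, 39.5 and 44.2 CPM in WT and 19.1, 18.6, 12.1 and 14.3 in Mini (-1.84 ± 0.30, adjusted p = 0.0159). The call was lost without Mini 2-A (adjusted p = 0.0551) and in 1 of the 9 pairings of lobes (adjusted p = 0.0925). Cd22, an inhibitory receptor of B cells, had 15, 8.55, 6.25 and 6.45 CPM in WT and 2.43, 1.75, 1.96 and 2.06 in Mini (-2.11 ± 0.29, adjusted p = 0.00447). Cr2, a complement receptor of mature B cells, had 9.75, 8.33, 5.03 and 5.34 CPM in WT and 2.43, 1.24, 1.59 and 1.18 in Mini (-2.12 ± 0.28, adjusted p = 0.00247).

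Ms4a1, which encodes CD20, had 14.6, 11.6, 7.72 and 8.57 CPM in WT and 2.85, 3.77, 3.03 and 4.16 in Mini (-1.61 ± 0.21, adjusted p = 0.00202), and Pou2af1, a B cell coactivator outside the list, had 20.9, 12.6, 8.04 and 8.05 CPM in WT and 3.36, 4.17, 2.92 and 3.19 in Mini (-1.83 ± 0.33, adjusted p = 0.0159). For Ebf1, Cd22, Cr2, Ms4a1 and Pou2af1 the 4 Mini lobes lay below the 4 WT lobes and WT 1 was the highest sample. Cd22, Cr2 and Ms4a1 were called without any 1 lobe. Pou2af1 was not called without Mini 2-A (adjusted p = 0.06) or in 2 of the 9 pairings of lobes (adjusted p up to 0.0608). Other members that fell included Cd79b, Pax5, Bank1, Fcmr, Fcer2a, Iglc2, Blk and Ighm.

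The B cell UMIs were distributed over cells differently in the 2 kits. Cells with at least 1000 UMIs outside ribosomal RNA were thinned to 1000, and smaller cells were left out. This kept 3489, 9066, 7542 and 12754 cells of WT 1 to 4 and 3825 to 4329 of the Mini lobes. In these cells the UMIs of 8 B cell genes, among them Ms4a1, Pax5, Ebf1 and Bank1, were counted. Exactly 1 such UMI was found in 9.03%, 10.5%, 7.23% and 8.16% of cells in WT 1 to 4, and in 0.805%, 0.601%, 0.993% and 0.741% of cells in the Mini lobes. Cells with 5 or more made up 1.83%, 0.287%, 0.305% and 0.322% in WT and 0.503%, 0.444%, 0.300% and 0.478% in Mini.

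Thus the share of cells with a single UMI was higher in every WT lobe than in every Mini lobe, whereas after thinning the share of cells with 5 or more overlapped between the kits, with WT 1 alone above 1%. Cells with 5 or more held 59.3%, 16.7%, 22.7% and 19.0% of these UMIs in WT and 71.1% to 82.85% in Mini. The 3 thymocyte genes Rag1, Dntt and Cd8a, treated in the same way, had at least 1 UMI in 74.8% to 76.6% of WT cells and 79.1% to 81.1% of Mini cells. Exactly 1 of their UMIs was found in 17.63%, 26.04%, 24.04% and 25.37% of cells in WT 1 to 4 and 17.65% to 19.46% in Mini. Cells with 5 or more made up 15.82%, 7.357%, 9.825% and 6.649% in WT and 15.92% to 17.69% in Mini. These cells held 41.38%, 22.79%, 29.3% and 21.1% of the thymocyte gene UMIs in WT and 39.56% to 42.65% in Mini. For the thymocyte genes WT 2 to 4 thus had more cells with 1 UMI and fewer with 5 or more than any Mini lobe. WT 1 lay just below the Mini range in both. For the B cell genes, in contrast, the share with 1 UMI was higher in all 4 WT lobes. What lies behind either difference was not tested. Without thinning, 5 or more UMIs of the B cell genes were found in 5.89%, 1.29%, 0.659% and 0.951% of cells in WT and 0.576% to 0.914% in Mini, so that WT 1, WT 2 and WT 4 lay above every Mini lobe. Exactly 1 was found in 16.5% to 20.8% of WT cells and 2.23% to 2.56% of Mini cells, at median depths of 2910 to 3894.5 and 2298.5 to 3065.5 UMIs per cell.

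**Figure D3:**
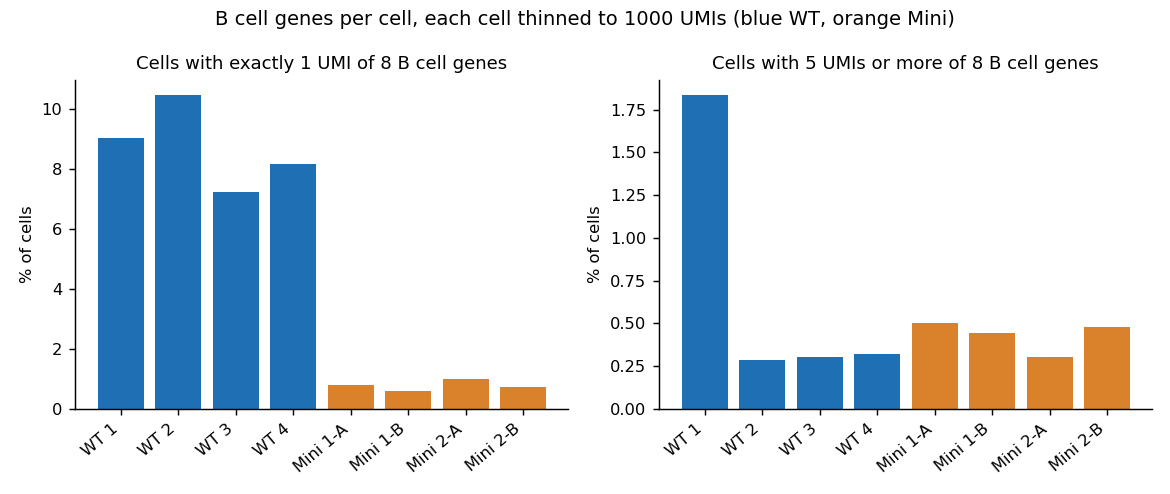
The bars give the percentage of cells (y axes, from 0, with different ranges) that held exactly 1 UMI (left) or 5 UMIs or more (right) of 8 B cell genes, for the 4 WT lobes in blue and the 4 Mini lobes in orange. Only cells with at least 1000 UMIs outside ribosomal RNA are included, each thinned to 1000. The left bars are above 7% in each WT lobe and below 1% in each Mini lobe, while the right bars overlap between the kits apart from WT 1 at 1.83%.

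Erythroid genes differed by large ratios at very low levels. Of 8 erythroid genes tested 5 fell (62.5%, against 5.99% of all genes) and none rose, the summed level of the list being 62.4 ± 6.97 CPM in WT and 47.8 ± 1.59 in Mini (SD, n = 4), and 5 of the 8 had passed the filter on low counts only through the WT lobes, so their count is no support by itself. Slc4a1, the anion exchanger band 3 of red cells, had 4.22, 3.19, 1.59 and 1.83 CPM in WT. The 4 Mini lobes together held 1 UMI against 369 in WT, a ratio of 168 after scaling to the totals, with a 95% interval of 29.9 to 6648 that covers counting error only. For the haemoglobin genes Hbb-bt and Hba-a1 the ratios were 75.5 (13.4 to 3001) and 36.6 (12.4 to 178.5), and Hba-a2, with 107 UMIs in WT and 0 in Mini, was at least 16.2-fold lower at a floor of 3 UMIs over the Mini lobes.

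Most cells with haemoglobin UMIs held a single one. Among all cells within the limits, 56, 286, 194 and 303 cells of WT 1 to 4 held exactly 1 UMI of 4 haemoglobin genes. A cell with 5 or more occurred once in WT 1, where it held 54.0% of the 139 UMIs, and once in WT 4. In the thinned cells WT 1 to 4 held 6, 73, 44 and 88 of these UMIs in 6, 72, 44 and 84 cells, and no cell held 5 or more. The Mini lobes held 0, 0, 0 and 3. Hbb-bs had 4.27, 3.62, 2.84 and 2.81 CPM in WT and 0, 0.0563, 0.159 and 0.206 in Mini and passed the filter only through WT, and its median in the other 16 samples of the WT pool was 181 CPM.

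Of 8 neutrophil genes 4 fell (50%, against 5.99% of all genes) and none rose. S100a8, S100a9 and Camp, which are 3 of the 4, were among 5 members that had passed the filter only through WT. S100a8, a calprotectin subunit of neutrophils, had 3.01, 1.99, 2.03 and 2.03 CPM in WT and 0.103, 0.394, 0.266 and 0.411 in Mini (-2.91 ± 0.31, adjusted p = 0.000573), and its partner S100a9 had 8.05, 6.78, 4.31 and 5.26 CPM in WT and 0.362, 0.507, 0.743 and 1.8 in Mini (-2.80 ± 0.39, adjusted p = 0.0045). Both lay lower in each Mini lobe, and a difference was a condition of their being tested. Here the thinned cells held both kinds of UMI, since cells with 5 or more of 4 neutrophil genes were 2 to 6 per WT lobe and 0 to 2 per Mini lobe.

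H2-Ea, chosen after its values were seen, had the largest fitted difference of all, a size that depends on the prior count of the fit. It passed the filter on low counts only through the WT lobes, so that a difference was a condition of its being tested. It encodes the alpha chain of the class II molecule I-E, and a deletion in the H2-b haplotype of C57BL/6 mice leaves it without transcripts. WT 1 to 4 had 106, 142, 78 and 148 UMIs (5.81, 3.54, 2.26 and 2.48 CPM) and the Mini lobes had 0 among 474 UMIs in all, which is at least 71.9-fold lower in Mini. The other 16 samples of the WT pool read it at 111 to 269 CPM. No cell of the WT lobes held 5 UMIs of H2-Ea or more: the cells with exactly 1 numbered 87, 132, 78 and 142, and those with 2 to 4 numbered 8, 5, 0 and 3.

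Class II genes that C57BL/6 mice do express were read in single UMIs and also in cells with many. Of H2-Aa, H2-Ab1 and the invariant chain gene Cd74 together, 5 UMIs or more were found in 37, 98, 120 and 190 cells of the WT lobes and 62, 47, 45 and 52 of the Mini lobes, which is 0.839% to 1.34% and 0.894% to 1.18% of cells. Exactly 1 UMI of them was found in 5.41% to 8.00% of WT cells and 0.837% to 1.39% of Mini cells, without overlap. H2-Aa had 16.9, 13.3, 14.9 and 18.6 CPM in WT and 11.9, 12.2, 7.65 and 13.7 in Mini and was not called (-0.49 ± 0.16, adjusted p = 0.0792). Of 18 class II and dendritic cell genes 3 fell (16.7%, against 5.99% of all genes; H2-DMb2, H2-DMb1 and Ccr7) and none rose, with 5 falling by DESeq2, 5 in thinned cells and 1 to 7 with lobes summed in pairs. Of 13 macrophage genes edgeR called Mertk as higher (7.69%, against 2.84% of all genes) and no other, and DESeq2 called 2 as higher. Mertk was not called without WT 2, WT 3, Mini 1-A, 2-A or 2-B. Of 5 epithelial and 6 fibroblast or endothelial genes none was called by edgeR or DESeq2, while 1 and 2 had an unadjusted p below 0.05.

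The share of genes called differed with their level in the rest of the WT pool. Each gene was placed by the ratio of its median CPM in the other 16 samples to its mean over the 8 lobes, a grouping added after the data were seen. Of 63 genes more than 32-fold higher in the other samples 56 fell (88.9%) and none rose. Of the 63, 21 had passed the filter only through WT and all 21 were called, and 35 of the other 42 fell (83.3%). Of 443 genes 8 to 32-fold higher 133 fell (30.0%) and 1 rose, with 83 of 343 (24.2%) left without those that passed only through WT. Of 10862 genes within 2-fold, 536 fell (4.94%) and 260 rose (2.39%), and of 2051 genes under 0.5 times as high in the others, 54 fell (2.63%) and 165 rose (8.04%). B cell genes of the list were 11 of the 63 and 7 of the 443.

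For the 63 genes, the median level in a lobe was 4.01%, 2.70%, 2.05% and 2.32% of the other samples in WT 1 to 4 and 0.835%, 0.961%, 0.759% and 1.09% in the Mini lobes. For the 42 genes it was 2.25% to 4.25% in WT and 0.940% to 1.30% in Mini. Most genes of both sets had been called lower, so the order of the kits here largely follows from the calls and is no separate support. The Mini lobes also entered the mean that placed the genes. For genes 8-fold or more above the lobes, called lower 189 times in all, the count was 97 to 134 without WT 4 or any 1 Mini lobe, 161 to 204 without WT 1, WT 2 or WT 3, and 68 with cells thinned to 1000 UMIs. Thinning left 11551 genes to test, against 15158. Scd1, a fatty acid desaturase gene, was an example outside the lists of blood cells, with 6.74, 4.34, 3.67 and 4.29 CPM in WT, 1.5, 1.41, 1.06 and 1.54 in Mini (-1.76 ± 0.22, adjusted p = 0.00118) and 92.3 to 659.6 in the others. Of the 908 genes called lower 590, and of the 391 called lower by at least 2-fold 219, were however less than 2-fold higher in the other samples than in the lobes. Of the 430 called higher, 425 were. The part of the rest of the pool in these differences was not tested.

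**Figure D4:**
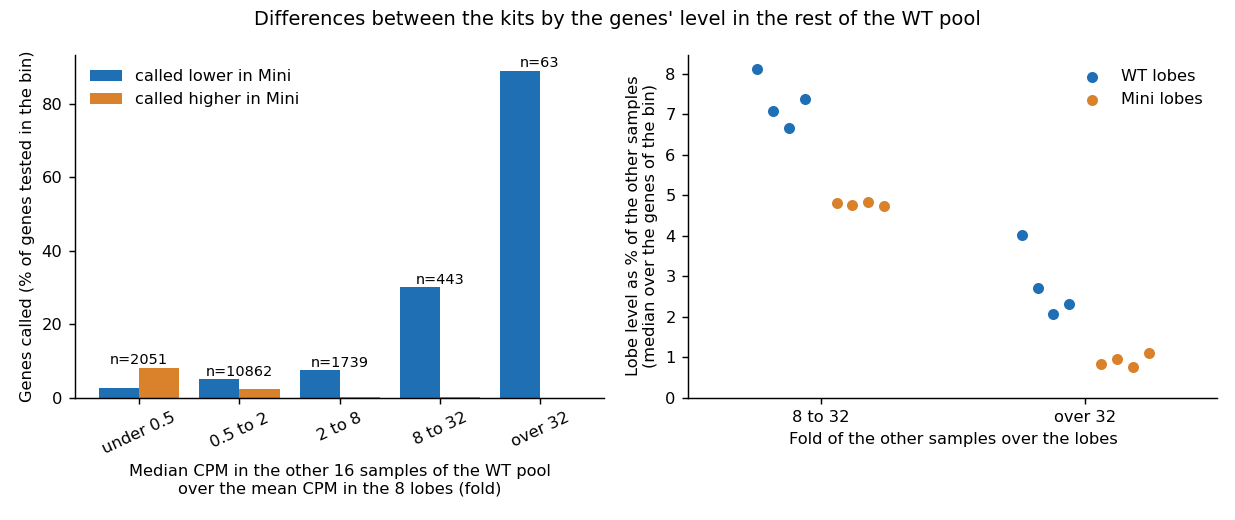
Left, the percentage of genes called lower (blue) and higher (orange) in Mini (y axis, from 0) in 5 bins of the ratio of the median CPM in the other 16 samples of the WT pool to the mean CPM in the 8 lobes (x axis), with the number of genes tested. Right, the level in each WT lobe (blue) and Mini lobe (orange) as a percentage of the other samples, as the median over genes of the 2 highest bins. The share called lower climbs from 2.63% to 88.9%, and in the highest bin the WT lobes lie at 2.05% to 4.01% and the Mini lobes at 0.759% to 1.09%. Most genes of that bin had been called lower, so its order of lobes is no separate result.

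Tiam2, an activator of the GTPase Rac (chromosome 17, 3326573 to 3531344), had the smallest p of all genes. It had 12.1, 11.7, 12.1 and 10.0 CPM in WT and 1.19, 1.3, 0.85 and 0.72 in Mini, with little spread in either kit (-3.50 ± 0.17, adjusted p = 2.96e-07). The other 16 samples ranged over 6.27 to 34.1 CPM, so that the Mini lobes lay below all 20 samples of the WT pool. The call held without any 1 lobe (adjusted p up to 1.24e-05).

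Sspn, a membrane protein gene of the dystrophin complex, had 67.9, 93.1, 294 and 134 CPM in WT and 16.7, 15.7, 18.9 and 19 in Mini (-3.07 ± 0.52, adjusted p = 0.0226). WT 3 was more than 2-fold above any other lobe, and the call was lost without WT 4 or any 1 Mini lobe (adjusted p up to 0.0761). The Sspn call was also lost in 3 of the 9 pairings of lobes (adjusted p up to 0.145). Agbl1, a deglutamylase gene, had 20.4, 15.4, 11.5 and 16.9 CPM in WT and 3.93, 5.8, 3.66 and 4.93 in Mini (-1.80 ± 0.19, adjusted p = 0.000573), and D130009I18Rik, an unnamed transcript of chromosome 14, had 88.2, 133, 120.2 and 59 CPM in WT and 18.5, 22.1, 17.8 and 27.2 in Mini (-2.22 ± 0.28, adjusted p = 0.00815). Agbl1 and D130009I18Rik were called without any 1 lobe, but D130009I18Rik was not called in 3 of the 9 pairings of lobes (adjusted p up to 0.163). The median of the other 16 samples was 136 CPM for Sspn, 219 for Agbl1 and 150.0 for D130009I18Rik.

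In the other direction Gm42047 (chromosome 8, 121833247 to 121841178) had the largest rise of all genes called, with 19.4, 43.5, 32.6 and 26.3 CPM in WT and 188, 157, 173 and 168 in Mini (2.48 ± 0.23, adjusted p = 0.0021). The lowest Mini lobe was more than 3-fold above the highest WT lobe, the other 16 samples spread over 36.7 to 674 CPM, and the call held without any 1 lobe. Mid1, an X-linked ubiquitin ligase gene at the boundary of the pseudoautosomal region, had 8.05, 12, 13 and 7.13 CPM in WT and 30.0, 34.3, 16.5 and 16.8 in Mini (1.27 ± 0.31, adjusted p = 0.0439), and leaving out any single lobe other than Mini 2-B ended the call (adjusted p up to 0.104). Mid1 was also not called in 4 of the 9 pairings of lobes (adjusted p up to 0.306). Peak1, chosen after its values were seen, had 174, 149, 139 and 186 CPM in WT and 215, 179, 2462 and 969 in Mini: only Mini 2-A and 2-B were high, and it was not called (2.56 ± 0.92, adjusted p = 0.145).

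Smaller rises were seen in unnamed transcripts. Gm41600 (chromosome 17, 52304567 to 52326582) had 35.7, 35, 27.1 and 30.0 CPM in WT and 42.6, 54.7, 46.6 and 51.6 in Mini (0.62 ± 0.10, adjusted p = 0.00627), and its median in the other 16 samples was 0.444 CPM. Gm37233 on chromosome 1 had 12.6, 9.43, 11 and 8.71 CPM in WT and 14.3, 17.2, 16 and 16.8 in Mini (0.64 ± 0.12, adjusted p = 0.0119). Both were called without any 1 lobe, and Gm37233 was not called in 1 of the 9 pairings of lobes (adjusted p = 0.0543). Thrb, a thyroid hormone receptor gene, rose by 0.53 ± 0.12 and was not called without WT 3, Mini 2-A or 2-B (adjusted p up to 0.0817).

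Very long genes at low levels were lower in the Mini lobes. This set was also defined after the data were seen, with gene lengths from GENCODE M21 on GRCm38. Of 142 genes that span more than 500 kb and average under 5 CPM, 86 fell (60.6%) and none rose, with a median of -0.84. Of the 142, 20 had passed the filter only through WT, and 12 of these were called lower. Among genes of the same level but under 10 kb, 109 of 1928 fell (5.65%) with a median of -0.09. The count of 86 was 33 without Mini 2-A, 47 to 56 without WT 3, WT 4, Mini 1-B or Mini 2-B, 63 without Mini 1-A, 72 without WT 2 and 100 without WT 1. It was 43 without the upper limit of UMIs per cell and 10 with thinned cells. With thinned cells 11551 genes were tested, against 15158, so that a lower count can also mean genes not tested. Without any filter, the sum over 140 protein-coding genes of this kind was 314, 356, 371 and 342 CPM in WT 1 to 4 and 224, 203, 210 and 211 in the Mini lobes, 1.63-fold lower in Mini. The same sum was 1.12-fold lower for 6007 genes under 10 kb and 1.39-fold lower for 386 genes of 200 to 500 kb.

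Several of these genes are best known from neurons. Csmd1, a giant complement-regulating membrane protein gene of chromosome 8, had 3.78, 6.86, 6.86 and 5.64 CPM in WT and 2.64, 2.59, 2.71 and 2.52 in Mini (log2 fold change -1.16 ± 0.18, adjusted p = 0.0045). Kcnma1, a potassium channel gene of chromosome 14, had 1.59, 2.02, 2.05 and 2.70 CPM in WT and 0.672, 0.676, 0.743 and 0.720 in Mini (-1.59 ± 0.23, adjusted p = 0.00238). Lrp1b, a long receptor gene above 5 CPM that was chosen after its values were seen, had 7.01, 12.1, 9.84 and 12.2 CPM in WT and 4.81, 4.06, 3.98 and 4.27 in Mini (-1.28 ± 0.17, adjusted p = 0.00165). For each of these the 4 Mini lobes lay below the 4 WT lobes and were close together. The median of the other 16 samples was 6.58 CPM for Csmd1, 5.17 for Kcnma1 and 9.02 for Lrp1b. Some long genes of low level that fell were far higher there, with medians of 183 CPM for Sox6, 36.7 for Plcb1 and 55.2 for Robo1. At 5 CPM or more the pattern by length was another: genes of 50 to 200 kb rose more often (8.23% of 2504) than they fell (2.16%), while of 90 genes over 500 kb 21.1% fell and 6.67% rose. The genes called higher had a median length of 65.1 kb against 23.8 kb for all genes tested.

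**Figure D5:**
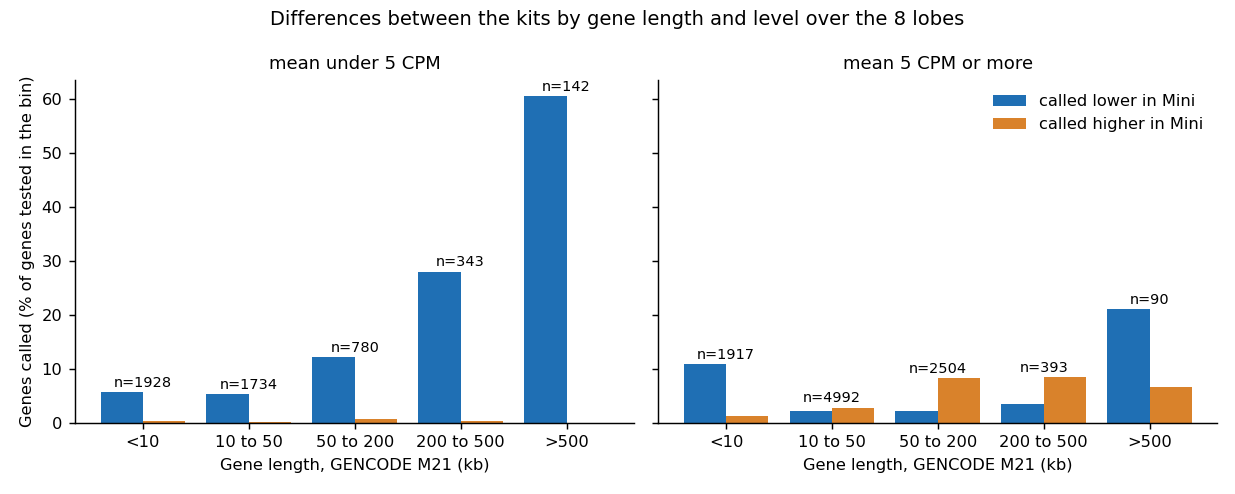
The percentage of genes called lower (blue) or higher (orange) in Mini (y axis, from 0) is given in 5 bins of gene length (x axis, kb, GENCODE M21), for genes that average under 5 CPM over the 8 lobes (left) and 5 CPM or more (right), with the number of genes tested above each pair of bars. On the left the share called lower climbs from 5.65% under 10 kb to 60.6% over 500 kb with hardly any gene called higher, and on the right genes of 50 to 500 kb were called higher in more than 8% of cases.

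Of 20 immediate early genes, which can be induced while tissue is digested, 1 rose (5%, against 2.84% of all genes). In the other direction 4 fell (20%, against 5.99% of all genes), with 1 falling without Mini 1-B or 2-A. Junb, an AP-1 factor, had 67.4, 68.2, 62.4 and 70.9 CPM in WT and 48.7, 52.3, 40.7 and 44.9 in Mini (-0.53 ± 0.08, adjusted p = 0.00438) and was called without any 1 lobe. Of 14 heat shock genes 4 fell (28.6%) and none rose, with 0 without WT 4 or Mini 1-B and 8 without WT 1. Hspa8, a constitutive chaperone, had 253, 437, 302 and 382 CPM in WT and 175, 182, 232 and 219 in Mini (-0.77 ± 0.18, adjusted p = 0.0383). Of the fits without 1 lobe, it kept its call only without WT 1 (adjusted p = 0.00448, up to 0.1 without the others). Hspa8 was also not called in 3 of the 9 pairings of lobes (adjusted p up to 0.1245).

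Of 30 S phase genes 1 rose (3.33%, against 2.84% of all genes) and 1 fell (3.33%, against 5.99%). The falling count was 8 without WT 1, 0 without WT 3, WT 4 or any 1 Mini lobe, and 5 by DESeq2. Of 32 genes of G2 and mitosis 2 rose (6.25%, against 2.84% of all genes) and none fell, with 0 rising without WT 3, WT 4, Mini 1-A, 1-B or 2-A. Pola1, the catalytic subunit of the polymerase that primes replication, had 219, 234, 230.5 and 245 CPM in WT and 353, 299, 301 and 254 in Mini (0.38 ± 0.08, adjusted p = 0.0184; not called without WT 3 or Mini 2-A). Replication-dependent histone genes, whose mRNAs lack a poly(A) tail, fell in 5 of 55 cases (9.09%, against 5.99% of all genes), and none rose. H4c4 had 19, 23.8, 23.7 and 19 CPM in WT and 10.8, 14.6, 11.9 and 15.4 in Mini (-0.70 ± 0.13, adjusted p = 0.0094) and kept its call without any 1 lobe but not in 1 of the 9 pairings of lobes (adjusted p = 0.0521), while the count for the list was 1 without Mini 1-A, 1-B or 2-A, 2 without Mini 2-B and 3 without WT 3. Histone genes are near-identical copies, so reads may be divided among them.

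Of 16 p53 target genes 3 rose (18.8%) and 1 fell (6.25%), and of 26 glycolysis and hypoxia genes 3 rose (11.5%) and 1 fell (3.85%), against 2.84% and 5.99% of all genes. Both counts of rising genes were 1 without Mini 2-A. Fas, a death receptor gene, had 94.6, 87.4, 91.8 and 81.8 CPM in WT and 104, 116, 116 and 120.0 in Mini (0.36 ± 0.07, adjusted p = 0.0106), and Pdk1, a kinase that inhibits pyruvate dehydrogenase, had 131, 130.3, 113 and 118 CPM in WT and 146, 153, 157 and 162 in Mini (0.33 ± 0.06, adjusted p = 0.0124). Both lay higher in each Mini lobe and were called without any 1 lobe, while Fas was not called in 1 of the 9 pairings of lobes (adjusted p = 0.0503). Of 20 glucocorticoid target genes 2 rose (10%, against 2.84% of all genes) and 2 fell (10%, against 5.99%). Neither count was above 0 without WT 4, Mini 1-B, 2-A or 2-B. Of 43 interferon-stimulated genes 2 fell (4.65%, below the 5.99% of all genes) and none rose, with 0 falling without WT 4. Of 19 circadian clock genes 1 fell (5.26%), of 8 Gimap genes 1 fell (12.5%) and of 23 cholesterol and lipid synthesis genes 1 fell (Scd1, 4.35%), against 5.99% of all genes. The clock gene, Bhlhe41, had passed the filter on low counts only through WT, so that a difference was a condition of its being tested. The clock call was lost without Mini 1-B, 2-A or 2-B, and the Gimap call without WT 3, WT 4, Mini 1-A, 1-B or 2-A. DESeq2 called 1 clock gene as higher and 2 as lower, and 2 Gimap genes as lower. Of 18 genes of the unfolded protein and integrated stress responses edgeR called none, 6 had an unadjusted p below 0.05, and DESeq2 called 1 in each direction. Regulatory T cell genes fell in 3 of 11 cases (27.3%), innate-like and gamma-delta T genes in 4 of 14 (28.6%) and plasmacytoid dendritic cell genes in 3 of 9 (33.3%). None rose by edgeR, while DESeq2 called 2 innate-like and gamma-delta T genes as higher. Each of the 3 falling counts was 1 without Mini 1-B or 2-A. The summed levels of the 3 lists overlapped and averaged 715, 462 and 862 CPM in WT and 784, 540 and 903 in Mini. Of the members that fell, Capg, Blk (also a B cell gene), Plac8 and Spib had medians of 47.3, 292, 88.5 and 78.8 CPM in the other 16 samples. Tnfrsf4, Ctla4 and Zbtb16 had 5.95, 23.0 and 17.1 there, below their WT lobe means. Of 65 V and J segments of the TCR edgeR called none, 6 had an unadjusted p below 0.05 and DESeq2 called 1 as higher. Of 9 small non-coding RNAs and 10 nuclear lncRNAs edgeR also called none, 3 and 2 had an unadjusted p below 0.05, and DESeq2 called 3 and 2.

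Over abundant genes the kits differed little more than the WT lobes did among themselves. Over 3894 genes of at least 50 CPM, the median absolute log2 difference between 2 lobes averaged 0.125 within WT (6 pairs, 0.095 to 0.161), 0.0728 within Mini (6 pairs, 0.0676 to 0.0859) and 0.144 between the kits (16 pairs, 0.101 to 0.183). Wells that held parts of the same lobe differed by 0.0735 to 0.230. These were at lower depth and scaled without TMM factors, unlike the lobes, so the well values are not directly comparable with the others. The first principal component held 41.9% of the variance and separated the kits, and the second held 16% and set WT 1 apart from the other 7 lobes.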

How the data were processed

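Whole-number UMI counts per gene and cell were deposited as 1 table per kit. The authors made them with split-pipe on an mm10 reference from Ensembl, merging the sublibraries (9 WT, 2 Mini). Neither its version nor its handling of multi-mapped reads was stated in the sources. The deposited mapped reads per cell were used only for reads per UMI. Samples were taken from the well labels, and labels do not link lobes to mice. The 10x libraries were not analysed here.

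UMIs of cells with 500 to 25000 UMIs were summed per lobe. Doublets were not removed. Genes passing edgeR's filterByExpr (cutoff 0.535 CPM) were tested 4 against 4 with TMM factors and the edgeR (4.0.16, R 4.3.3) quasi-likelihood test, with Benjamini-Hochberg adjustment and a threshold of 0.05. The test was also tried on simulated data drawn from the fitted means. These had the same dispersion for all genes and independent lobes, so lobes that share a mouse were not simulated. DESeq2 1.42.0 was an alternative. Sample-level measures were compared by exact two-sided permutation tests (scipy 1.17.1, Python 3.11.15). Positions came from GENCODE M21 (GRCm38), which matched 52029 of 57010 gene identifiers (91.3%).

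Named genes were, per list, the 4 with the largest called difference without overlap, the 12 largest in each direction at 10 CPM or more, the 10 most abundant genes and identity checks. H2-Ea, Peak1, Lrp1b, Csmd1, Kcnma1, Sox6, Plcb1, Robo1, Ddx3y and genes without a call named as list members were chosen after their values were seen. The members and lists were chosen with earlier results of these data known. Alternatives were other scalings, filters, UMI limits and thinning, leaving out each lobe, and lobes summed in pairs. Intervals and floors (3 counts, 95% exact) cover counting error only. Some genes are not reported here by name.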

Additional observations from a re-analysis of the deposited data

Results flagged for a closer look

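Among 280 groups of 4 lobes looked at, 14 (5.00%) held a sample whose gap to its nearest neighbour was large beside the whole range, and chance gives about 1 in 20. WT 1 accounted for 4 of them and Mini 2-B for 4.

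WT 1 stood above the other WT lobes for Hhex (1.698 CPM against 0.9837 to 1.105), the B lymphoid kinase gene Blk (26.3 against 11.86 to 13.14), S100a8 (3.013 against 1.995 to 2.026) and C030034L19Rik (29.75 against 21.62 to 22.62). WT 2 had 4961 CPM of Themis, a TCR signalling gene, against 4082 to 4216.

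Mini 2-B had 11.45% of UMIs in Rn18s-rs5 against 8.067% to 8.506% in the other Mini lobes, 4205 CPM, summed, of selection and TCR-signal genes against 4098 to 4106, 0.4112 CPM of Camp, a neutrophil granule gene, against 0 to 0.05634, and 0.0514 CPM of Hbb-bt against 0. Mini 2-A had 4.089 CPM of H4c3 against 5.295 to 5.465, 3.239 of H2-DMb1 against 4.113 to 4.164 and 0.05311 of Slc4a1 against 0. Mini 1-A had 143.8 CPM of Sesn1, a p53 target gene, against 157.2 to 159.2. Mini 1-B had 0 CPM of Hba-a1 against 0.0514 to 0.05311. The Camp, Hbb-bt, Slc4a1 and Hba-a1 values rest on few UMIs.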

How the results depend on the processing

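No paired analysis was possible because the replicate numbers in the labels number sublibraries, and lobes of different kits came from different mice. The 1338 calls became 2438 with no filter on low counts, 885 with no upper limit of UMIs per cell, 592 with cells thinned to 1000 UMIs and 323 to 2847 without 1 lobe. With lobes summed in pairs, for pairings 1, 2, 3, 5, 7, 8 and 9, they were 2173, 2193, 2947, 483, 2633, 2472 and 3349. The number of genes tested changed as well. It was 15158 in the main fit, 36084 with no filter, 16249 with no upper limit, 11551 with thinned cells and 18034 to 18906 in the pairings. The 396 calls of at least 2-fold became 790 with no filter, 145 with thinned cells and 182 to 559 without 1 lobe. Pairings 1 to 9 gave 680, 676, 757, 430, 272, 419, 769, 732 and 845. The 39 ribosomal protein genes called lower became 71 with DESeq2, 25 with no filter, 11 with no upper limit and 4 to 78 without 1 lobe. Pairings 1, 2, 3, 5, 7, 8 and 9 gave 77, 68, 78, 13, 75, 65 and 74. The 7 DP stage genes called higher became 12 with no filter, 6 to 11 without 1 lobe, 5 with thinned cells, 5 in pairing 5 and 11, 11 and 12 in pairings 7, 8 and 9. The 13 B cell genes called lower became 8 without TMM factors, 7 with thinned cells and 7 to 14 without 1 lobe. DESeq2 called 1882 genes (733 higher, 1149 lower). The median of all genes was -0.19 with no filter. Of 97 named genes called, 42 were called without any 1 lobe, 44 in every pairing, 54 under every other alternative and 32 under all of these, and 0 reversed. The cause of these changes was not tested. The 9 pairings are all that 2 mice with 2 lobes each allow, and which one is true is unknown. Mini lobes were summed by number in pairings 1, 4 and 7 (2173, 932 and 2633 calls) and by letter in 2, 5 and 8 (2193, 483 and 2472). Depth limits the genes near 0 in Mini, which rest on a few UMIs.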

Other observations

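Some mitochondrial mRNAs were nearly unread in both kits. mt-Co2, mt-Co3 and mt-Atp6, which encode subunits of complexes IV and V, had 5, 3 and 5 UMIs in the 4 WT lobes together and 1, 1 and 2 in the 4 Mini lobes, whereas mt-Co1, from the same genome, had 687 to 1101 CPM in WT and 546 to 837 in Mini.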
